A study of Mus musculus with 12 samples.

Results

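The distal end of mouse chromosome 2 carried 56273 of the 1600000 DNase-seq peaks in 16 deposited lists. The block was defined as every peak that starts at or beyond base 156000000 of chromosome 2 on build mm9. With bases counted from 1 it runs from 156000001 to the end of the last peak at 181747503, which is 25.7 Mb. All other peaks of the chromosome, from 3019648 to 156000000 (153 Mb, 78617 peaks), served as the reference. Of the members, 43991 lie in the 12 lists made from single libraries and the others in 4 lists for which the authors pooled the libraries of a group. No filter was applied to the members. The block was chosen by its peak density, which is higher in G1E-ER4 than in G1E lists, so every comparison of the lines below is a description and carries no test. The comparison of mitotic with asynchronous cells did not choose it and was tested. Peak density, which chose the block, still bears on tests that set the block against the rest of the chromosome.

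The study mapped accessible chromatin in 4 groups of 3 libraries. G1E is an erythroid line from 129 strain embryonic stem cells in which the gene of the transcription factor GATA-1 was disrupted by targeting, and its surface markers are given as Ter119-CD71- and Ter119-CD71+. G1E-ER4 is its subline with an inducible GATA-1, given as Ter119+CD71+. Every G1E-ER4 library, asynchronous or mitotic, came from cells given 100 nM estradiol for 22 h, and no G1E library did, so that line, estradiol and active GATA-1 cannot be told apart. To obtain mitotic cells, both lines were arrested for 7 h in nocodazole (200 ng/ml) and sorted by staining of phosphorylated histone H3, while the asynchronous cells were not given nocodazole. All cells were lightly fixed with formaldehyde before digestion. The labels do not say that libraries of a group came from separate cultures, so p-values measure the spread between these libraries, which may be technical.

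DNase I cuts DNA where nucleosomes are displaced or sparse, and a peak marks a place where cuts pile up. Promoters and enhancers bound by transcription factors make up most strong peaks. In mitosis chromosomes condense, most transcription stops and many factors leave the DNA, while part of the accessible sites stays open. GATA-1 drives red cell maturation and binds both promoters and enhancers. On assembly GRCm38.p6, whose coordinates were not carried over to mm9, the distal end of chromosome 2 holds in this order, among others, Src (a tyrosine kinase), Top1 (a topoisomerase), Mybl2 (a cell cycle transcription factor), Hnf4a (a liver and gut transcription factor), Ube2c (an enzyme of mitotic exit), Cebpb (a transcription factor of myeloid and fat cells), Sall4 (a stem cell factor), Aurka (a mitotic kinase), Gnas (a G protein subunit) and Tubb1 (the tubulin of platelets). No peak was assigned to a gene, so the lines could not be checked against marker genes either.

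Each list holds exactly 100000 peaks, ranked by the signal the authors' peak caller gave, so a peak gained in one place displaces one elsewhere and the depth of a library is unknown. Peaks cover 45.0 to 181 Mb of the genome per library. The signal falls less steeply in mitotic than in asynchronous lists: at rank 10000 it was 1.86 to 2.67 times the signal of the last peak in mitotic lists and 3.19 to 6.30 times in asynchronous ones. No 2 of the 12 lists were identical.

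G1E-ER4 lists held more peaks in the block than any G1E list. The 3 asynchronous G1E lists had 1346, 1546 and 1865 peaks there and the 3 mitotic ones 2115, 2685 and 2402. The asynchronous G1E-ER4 lists had 4437, 5627 and 6319 and the mitotic ones 4638, 5515 and 5496. The lowest G1E-ER4 count thus exceeded the highest G1E count, and within G1E every mitotic list exceeded every asynchronous one, while the stages of G1E-ER4 overlapped.

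Per megabase this came to 61.6 ± 10.2 peaks in asynchronous G1E, 93.2 ± 11.1 in mitotic G1E, 212 ± 37.0 in asynchronous G1E-ER4 and 203 ± 19.5 in mitotic G1E-ER4 (mean ± SD, n = 3 lists each). On the rest of the chromosome the group means were between 31.5 and 32.7 peaks per Mb. The block was therefore denser than its own chromosome in every list, by a ratio of 1.95 ± 0.314, 2.90 ± 0.130, 6.52 ± 1.31 and 6.19 ± 0.567 in the same order. Over all 6 lists of a line the ratio was 6.36 in G1E-ER4 and 2.43 in G1E. In the 4 pooled lists the order of the groups differed only between the stages of G1E-ER4, with ratios of 1.75 and 3.00 in asynchronous and mitotic G1E and 4.99 and 5.22 in asynchronous and mitotic G1E-ER4.

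**Figure D1:**
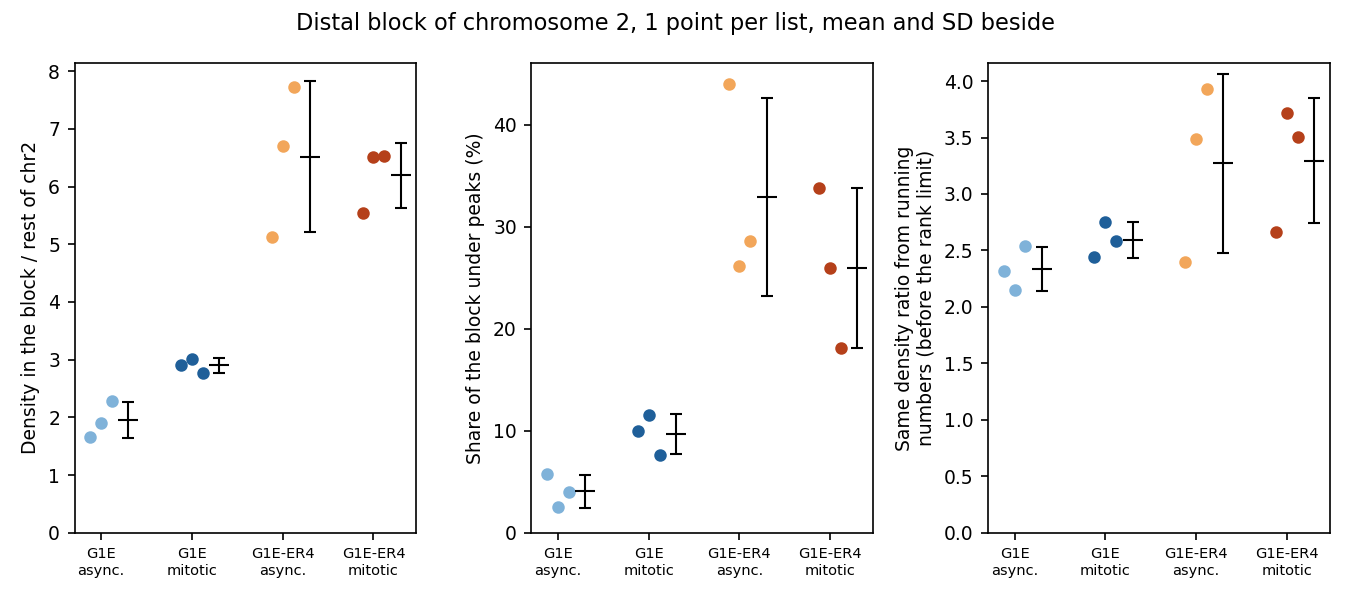
Left, ratio of peak density (peaks per Mb) in the distal block to that on the rest of chromosome 2; middle, percent of the block's length under peaks; right, the density ratio computed from the running numbers in the peak names. Each point is 1 list, and the bar beside it gives the mean and SD of 3 lists. In the left and middle panels all G1E-ER4 points lie above all G1E points (5.12 to 7.73 against 1.67 to 3.02 on the left), and in the right panel 1 G1E-ER4 list of each stage falls among the G1E lists.

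The difference began within the bins at the start of the block. In the last 100 kb before it, asynchronous G1E lists held 8, 6 and 5 peaks, mitotic G1E lists 2, 3 and 3, and the G1E-ER4 lists between 3 and 5. In the first 100 kb inside, the 6 G1E lists held 2 to 11 peaks and the 6 G1E-ER4 lists 13 to 19. The line means were thus 4.50 and 3.67 peaks in G1E and G1E-ER4 just outside and 6.50 and 16.7 just inside. Over 1 Mb the corresponding G1E and G1E-ER4 means were 77.7 and 81.8 peaks before the start and 116 and 252 after it. These bins are described because the rule's threshold lies between them.

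**Figure D2:**
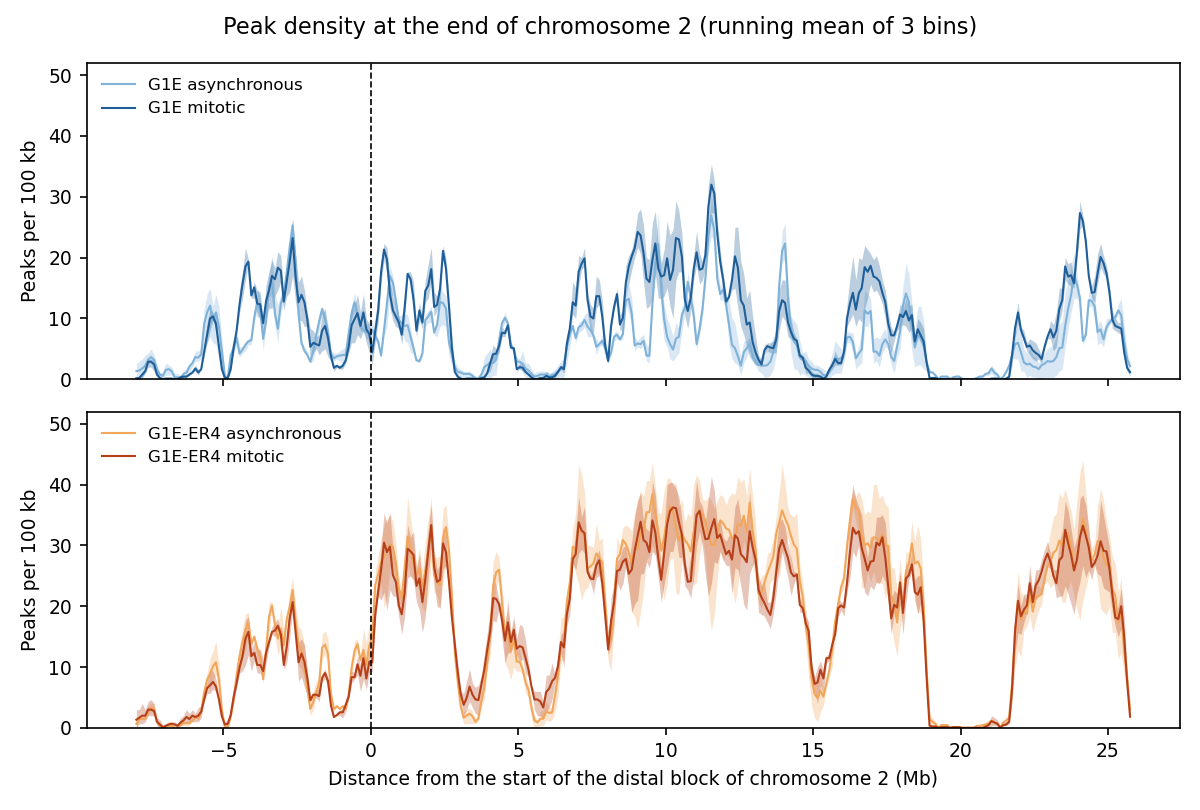
Peaks per 100 kb (running mean of 3 bins) against distance in Mb from the start of the distal block, for G1E (upper panel) and G1E-ER4 (lower panel); lines are means of 3 lists and shaded bands the range over them. Left of the dashed line neither line is higher throughout, though single bins differ. At -4.1 Mb asynchronous lists hold 4, 7 and 6 peaks in G1E and 18, 18 and 18 in G1E-ER4. At -0.7 Mb they hold 18, 12 and 11 in G1E and 10, 8 and 7 in G1E-ER4. Right of the dashed line the G1E-ER4 lists rise, with the same gaps as G1E near 19 to 21 Mb.

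Of the 258 bins of 100 kb in the block, 14 had no peak in any of the 12 lists. The mean of the G1E-ER4 lists was above that of the G1E lists in 233 bins, equal in 17 and below in 8. In 139 of the 244 bins with a peak (57%) every G1E-ER4 list exceeded every G1E list, against 0.74% of all 20817 such bins of the autosomes and X. The count on the rest of chromosome 2 was 0 of 1248 bins, and on the other chromosomes it was 15 of 19325. The opposite order occurred in 0 bins of the block and in 0.0769% of all bins. As the rule rests on this contrast, these counts only describe the block.

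The excess ran through the whole block. Of its 26 windows of 1 Mb, 23 had all G1E-ER4 lists above all G1E lists, and of the 153 windows on the rest of the chromosome 0 did. The exceptions were a window 3 Mb into the block, with 18 to 74 peaks in G1E-ER4 and 0 to 18 in G1E, and 2 adjoining windows 19 Mb and 20 Mb in, where no list held more than 6 peaks. Of the 25 whole windows, 23 had a G1E-ER4 mean of at least 20 peaks, and in these the G1E-ER4 mean was 1.68 to 7.71 times the G1E mean, with a median of 2.81. In the 112 windows on the rest of the chromosome with a G1E mean of at least 5, a different limit, the same quantity ran from 0.190 to 1.88 with a median of 0.977.

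Windows dense in one line were dense in the other. Over the 25 whole windows Pearson's r of the line means was 0.894 and Spearman's rho 0.911; the windows share libraries and differ in gene content, and no test was made. Among the windows with a G1E-ER4 mean of at least 20 peaks the fold was higher where G1E had fewer peaks, with a Spearman rho of -0.819 between the G1E mean and the ratio, of which the G1E mean is itself the denominator. The 2 windows under that limit, 19 Mb and 20 Mb in, had the fewest G1E peaks and ratios of 0.938 and 1.00. The window 3 Mb in had the highest ratio, from means of 45.0 and 5.83 peaks. Lowest among the windows over the limit stood the one 11 Mb in, where the 6 lists of a line averaged 330 ± 54.7 peaks for G1E-ER4 and 196 ± 40.7 for G1E (mean ± SD).

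**Figure D3:**
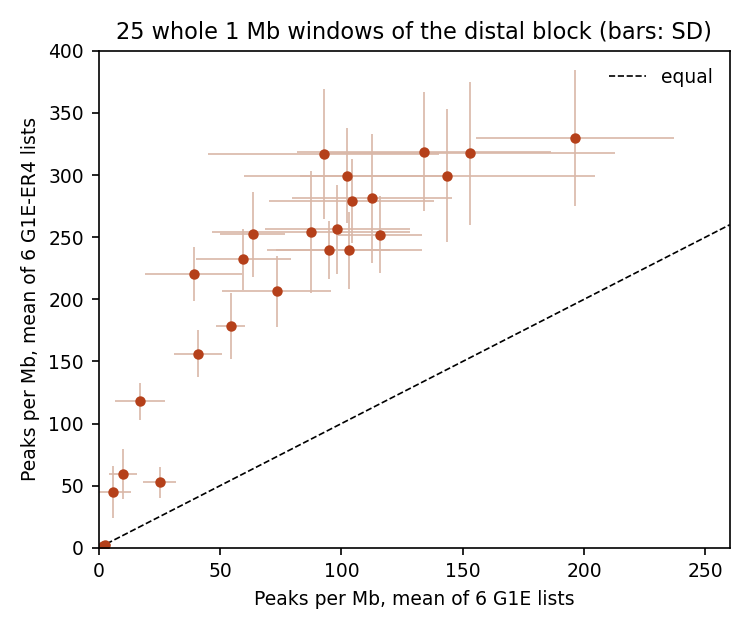
Mean number of peaks per 1 Mb window in the 6 G1E-ER4 lists against the 6 G1E lists, 1 point for each of the 25 whole windows of the block, with SD over the 6 lists as bars; the dashed line marks equal numbers. All windows but the 2 near the origin lie above the line.

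Single bins show how far this went. The bin of the largest difference, chr2:168900001-169000000, held 3, 3 and 5 peaks in asynchronous and 1, 10 and 6 in mitotic G1E, and 31, 43 and 49 in asynchronous and 34, 40 and 32 in mitotic G1E-ER4. The bin chr2:165400001-165500000 had 0 to 14 peaks in G1E and 26 to 41 in G1E-ER4. In chr2:172400001-172500000 the ranges were 2 to 21 and 32 to 43. The ranges of the lines did not overlap in any of these 3 bins. The other 2 bins of the 5 with the largest differences, chr2:168500001-168600000 and chr2:166200001-166300000, differed by means of 27.2 and 26.5 peaks.

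The bin richest in G1E-ER4 peaks was not among them. In chr2:165600001-165700000 the G1E-ER4 lists held 29 to 50 peaks and the G1E lists 21 to 41, so the ranges overlapped. Likewise chr2:163100001-163200000, the second by G1E-ER4 mean, had 21 to 52 against 12 to 29. The bin with the lowest difference, chr2:167500001-167600000, was dense in both lines. It held 40, 29 and 36 peaks in asynchronous and 32, 38 and 43 in mitotic G1E, against 11, 38 and 37 in asynchronous and 22, 38 and 47 in mitotic G1E-ER4. The 11 and 22 both belong to replicate 1, whose lists have the widest peaks of their groups. The other 2 bins with the lowest differences held 0 to 3 peaks in every list.

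Peaks of the block stood at different ranks in the 2 lines. None of the 100 highest peaks of any G1E list lay in the block, against 11, 11 and 8 in the asynchronous and 7, 4 and 3 in the mitotic G1E-ER4 lists. Among the 1000 highest, the share in the block was 1.03 ± 0.462% in asynchronous G1E, 1.10 ± 0.100% in mitotic G1E, 5.50 ± 0.436% in asynchronous G1E-ER4 and 3.80 ± 0.458% in mitotic G1E-ER4. The share was highest for asynchronous G1E-ER4 at ranks 30001 to 40000 (8.16 ± 1.85%) and for mitotic G1E-ER4 at ranks 10001 to 20000 (7.50 ± 0.600%). In asynchronous G1E it stayed between 1.03% and 1.94% in all classes and in mitotic G1E between 1.10% and 2.88%.

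**Figure D4:**
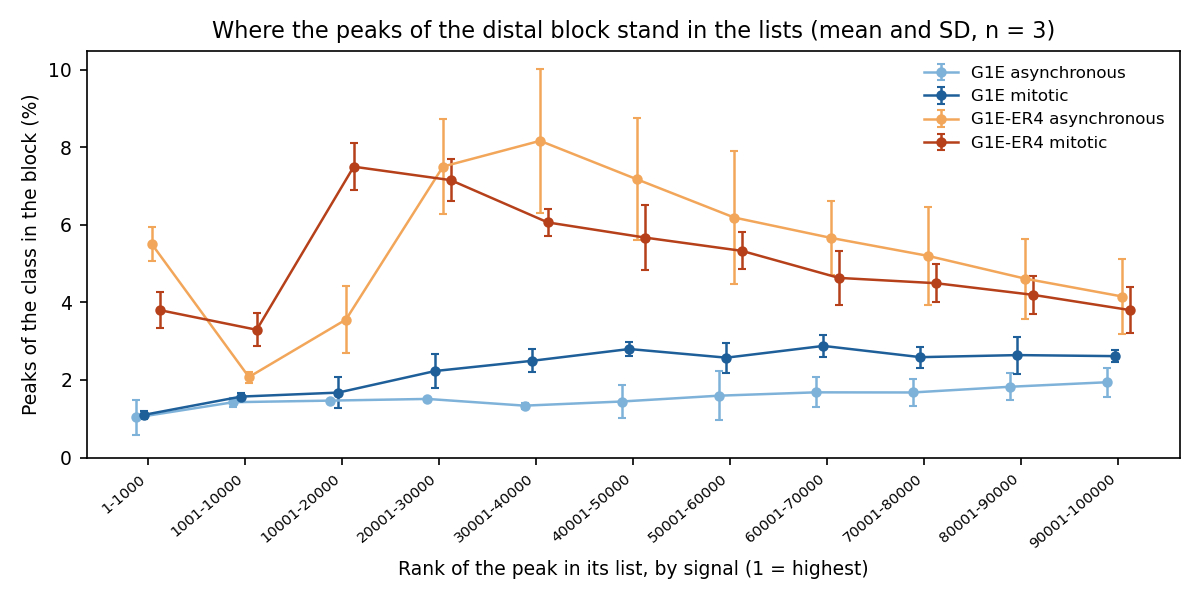
Percent of the peaks of each rank class that lie in the distal block, against rank by signal within a list (1 is the highest), as mean and SD of 3 lists per group. The G1E-ER4 curves reach 7.50% at ranks 10001 to 20000 (mitotic) and 8.16% at ranks 30001 to 40000 (asynchronous), and the G1E curves stay under 3%.

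The median rank of block peaks was 54421 ± 3218 in asynchronous and 54745 ± 412 in mitotic G1E, and 47483 ± 2623 in asynchronous and 43420 ± 1341 in mitotic G1E-ER4. In G1E these peaks ranked below those of the rest of the chromosome, whose medians were 40304 and 49156. In G1E-ER4 the medians on the rest were 46690 and 48281, so that block peaks ranked above them in mitotic lists and close to them in asynchronous ones. With the 50000 highest peaks of each list, the median rank number in the block was 927 larger (a weaker rank) in G1E-ER4 than in G1E, which is the opposite order.

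Regions with a peak in every library ranked better in G1E-ER4 than in G1E, each taken at its best-ranked peak in a list. The 12 lists, merged where peaks share at least 1 bp, gave 6097 regions in the block, of which 364 had a peak in all 12. The median rank of these 364 was 16178 ± 956 and 14785 ± 2030 in asynchronous and mitotic G1E, and 8324 ± 419 and 8231 ± 676 in asynchronous and mitotic G1E-ER4. For the 915 such regions on the rest of the chromosome the 4 medians lay between 7635 and 9298. The mean rank was better in G1E-ER4 for 341 of the 364 (93.7%) and for 583 of the 915 (63.7%), and each of the 6 G1E-ER4 ranks was better than each G1E rank for 114 (31.3%) and 23 (2.51%). Within a list the signal of such a region in the block was, at the median, 0.666 and 0.724 of that on the rest in asynchronous and mitotic G1E, and 0.930 and 1.01 in G1E-ER4. The 364 regions had a median width of 5304 bp and the 915 one of 2960 bp. A region can hold more than 1 peak of a list, and G1E-ER4 lists have more peaks in the block. The part of peak number in these ranks was not tested.

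Of the 5 best-ranked of the 364, the region chr2:179989489-180009800 (20312 bp wide) ranked 152, 318 and 108 in asynchronous G1E, 2158, 185 and 290 in mitotic G1E, 31, 15 and 10 in asynchronous G1E-ER4, and 1284, 42 and 97 in mitotic G1E-ER4. Replicate 1 had the weakest rank in both mitotic groups, and the ranges of the lines overlapped. The region chr2:179848627-179856802 ranked 443 to 1082 in G1E and 24 to 315 in G1E-ER4.

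Of the others, chr2:173480395-173488778 ranked 289 to 2766 in G1E and 22 to 72 in G1E-ER4. The region chr2:160471114-160475004 ranked 339 to 2580 and 36 to 311. The ranges of the lines did not overlap in these 3 regions, nor in chr2:158619474-158623093, with ranks of 706 to 1100 and 211 to 464. All 5 had a peak in each of the 4 pooled lists.

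Peaks of the block were wide, compared with the rest of the chromosome, and close together in G1E-ER4. Their median width exceeded that on the rest of the chromosome by 366, 203 and 210 bp in the asynchronous and 204, 145 and 141 bp in the mitotic G1E-ER4 lists. In G1E the same difference was between -27.0 and 69.5 bp. The median widths in the block themselves overlapped between the mitotic lists, with 603.5 to 921 bp in G1E and 608 to 1144 bp in G1E-ER4. Between the asynchronous lists they did not, with 331 to 757 bp and 801 to 1574 bp. Peaks covered 4.06 ± 1.62% and 9.68 ± 1.97% of the block in asynchronous and mitotic G1E, and 32.9 ± 9.65% and 26.0 ± 7.85% in asynchronous and mitotic G1E-ER4, while the group means on the rest were between 2.13% and 3.91%. The highest value, 44.0%, belongs to replicate 1 of asynchronous G1E-ER4. The median gap between neighbouring peaks of the block was 4971 and 2209 bp in the stages of G1E and 706 and 859 bp in those of G1E-ER4.

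Each peak name carries a running number that rises along every chromosome in all 16 lists and was taken here as its number before the limit by rank, which no source states. Counted in this way, the density ratio of block to rest was 2.34 ± 0.193 and 2.59 ± 0.157 in asynchronous and mitotic G1E and 3.27 ± 0.791 and 3.30 ± 0.557 in asynchronous and mitotic G1E-ER4. The ranges of the lines overlapped, with 2.15 to 2.75 in G1E and 2.40 to 3.93 in G1E-ER4, and in the pooled lists the order was the opposite (2.37 and 2.18 in G1E, 1.94 and 2.10 in G1E-ER4). The share of these numbers kept in the final lists was 38.7% and 37.4% in the block and 19.3% and 19.8% on the rest in asynchronous and mitotic G1E-ER4. In G1E it was 24.6% and 22.9% in the block and 29.0% and 20.6% on the rest.

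Peaks of the block in G1E lists were found in G1E-ER4 lists more often than the reverse. A peak of an asynchronous G1E list had an overlapping peak in an asynchronous G1E-ER4 list in 85.9 ± 3.68% of cases, against 53.6% on the rest of the chromosome, and a mitotic G1E peak in a mitotic G1E-ER4 list in 89.9 ± 0.739%, against 59.3%. Of the asynchronous G1E peaks 75.0 ± 4.00% had one in a mitotic G1E-ER4 list. In the other direction, within a stage, the shares were 20.2 ± 2.15% for asynchronous and 34.1 ± 2.55% for mitotic lists, against 47.8% and 58.9% on the rest. The larger covered length of the G1E-ER4 lists, given above, moves with these shares, and its part in them was not tested.

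Among the 6097 regions, 3492 (57.3%) had a peak in at least 1 G1E-ER4 list and in no G1E list, and 205 (3.36%) the reverse. On the rest of the chromosome these classes held 27.2% and 33.1% of 13211 regions. A peak in all 6 G1E-ER4 lists and no G1E list marked 178 regions (2.92%), against 0.0848% of all 265371 regions and 4 on the rest of chromosome 2, so that most of the 225 such regions of the genome lay in the block. The reverse held for 0 regions of the block and for 0.0358% of all. The 178 regions were spread over 24 of the 26 windows. A peak of the pooled lists was found at 177 of them in asynchronous and 178 in mitotic G1E-ER4, at 3 in asynchronous G1E and at 17 in mitotic G1E.

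These regions were not among the strongest. The best-ranked, chr2:181152541-181156642, ranked 21048, 12406 and 15282 in asynchronous and 20497, 9807 and 12990 in mitotic G1E-ER4. Next came chr2:173489110-173491932, just beyond one of the strong regions named above, at 10096 to 28190; it has a peak in all 4 pooled lists. Both chr2:168984931-168988331 and chr2:170184136-170186048 had better ranks in mitotic than in asynchronous lists, with 6374 to 10849 against 31653 to 33041 in the first and 7244 to 16046 against 27278 to 31841 in the second. The fifth, chr2:180950499-180951482, ranked 11520 to 44108 with stages that overlap.

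A difference of peak density between mitotic and asynchronous cells did not pass the test over both lines. Mitotic minus asynchronous, the ratio of density in the block to the rest was 0.308 as a mean of the lines (exact permutation test with stage labels exchanged within line, two-sided, p = 0.525, Benjamini-Hochberg adjusted over 6 tests 0.525). In G1E every mitotic list was higher, by 0.944 on average (exact p = 0.1, the smallest that 3 against 3 lists allow), and in G1E-ER4 the stages overlapped, with a difference of -0.328 (exact p = 0.8). The difference between the lines was -1.27 (exact permutation p = 0.165, adjusted 0.33). Without replicate 1 of asynchronous G1E-ER4 the mean of the lines was -0.0408.

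By 100 kb bins, all 3 mitotic G1E lists exceeded all asynchronous ones in 72 of the 244 bins (29.5%), against 11.6% of all bins, and the reverse held in 20 (8.2%), against 15.6%. In G1E-ER4 the counts were 9 (3.69%, against 5.11%) and 17 (6.97%, against 6.38%). The share of bins higher in mitosis was thus above the background in G1E and not in G1E-ER4. Covered length moves with this: mitotic G1E lists covered 9.68% of the block and 3.44% of the rest, and asynchronous ones 4.06% and 2.13%. Its part was not tested.

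Among the 20000 highest peaks of each list, the stages of G1E-ER4 separated. Asynchronous G1E-ER4 lists placed 548 to 686 of them in the block and mitotic ones 1005 to 1199, and the ratio of density to the rest was 2.87 ± 0.350 and 5.77 ± 0.634. In G1E the ratio was 1.38 ± 0.0483 in asynchronous and 1.79 ± 0.135 in mitotic lists. By this ratio every mitotic list was above every asynchronous one in both lines, while the counts in the block overlapped in G1E (274 to 297 in asynchronous and 270 to 359 in mitotic lists). The mean difference of 1.65 had an exact permutation p = 0.005, the smallest possible, and 0.03 adjusted, where the whole lists gave 0.525. Within a line it was 0.405 in G1E and 2.90 in G1E-ER4 (exact permutation p = 0.1 each, the smallest possible). With the 50000 highest peaks the mean difference was 0.692 and did not pass (exact permutation p = 0.08, adjusted 0.096). The adjustment covers the 6 tests within a setting and not the number of settings tried. Of the 213 bins with such a peak, 78 (36.6%) were higher in all mitotic G1E-ER4 lists, against 4.05% of all bins and 1.6% on the rest of chromosome 2, and 2 (0.939%, against 7.58%) were lower. In G1E 10 bins were higher in all mitotic lists (4.69%, against 4.53% of all bins) and 5 lower (2.35%, against 7.06%). All G1E-ER4 lists exceeded all G1E lists in 31 of the 213 bins (14.6%, against 0.439%), and the reverse held in 0 (against 0.359%). In G1E-ER4 the order of the stages changed with rank. The mean share of a rank class in the block was higher in mitotic lists at ranks 1001 to 10000 (3.29% against 2.07%) and 10001 to 20000 (7.50% against 3.56%). It was higher in asynchronous lists at ranks 1 to 1000 (5.50% against 3.80%) and 30001 to 40000 (8.16% against 6.06%). Mitotic lists have the flatter signal curve, as given above. This moves with the difference of ranks, and its part was not tested.

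Regions of the block seen in asynchronous cells overlapped a mitotic peak more often, relative to the replicate level, than those on the rest of the chromosome. The block was chosen for its peak density, which bears on this comparison, and the overlap expected from density alone was not tested. Regions of 2 asynchronous lists were looked up in the third asynchronous list and in the mitotic lists of the same line, each list being left out in turn. In the block of G1E 85.3 ± 5.85% were found in the asynchronous and 75.1 ± 5.86% in the mitotic lists, and in G1E-ER4 87.1 ± 5.68% and 80.0 ± 5.21% (mean ± SD over 3 lists). On the rest of the chromosome the shares were 87.3 ± 0.942% and 58.3 ± 9.64% in G1E, and 87.3 ± 3.09% and 69.2 ± 2.93% in G1E-ER4. For these regions the replicate level was thus about the same in both parts, and the mitotic share was higher in the block. For all single peaks of asynchronous lists the replicate level differed, with 52.2% in the block and 62.0% on the rest in G1E, and 76.6% and 66.2% in G1E-ER4. Their mitotic shares were 51.7% and 44.1% in G1E and 66.8% and 54.4% in G1E-ER4.

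The deficit in mitosis was 10.2 percentage points in the block of G1E and 7.10 in that of G1E-ER4, a mean of 8.63 (exact permutation p = 0.0575, adjusted 0.0863). On the rest it was 29.1 and 18.1 points. The deficit in the block minus that on the rest was -14.9 points as a mean of the lines (exact permutation p = 0.0025, the smallest that 400 arrangements give, adjusted 0.015), with -18.9 in G1E and -11.0 in G1E-ER4 (exact p = 0.05 each, the smallest of 20 arrangements). A difference between the lines was not detected (7.93 points, exact permutation p = 0.295, adjusted 0.443).

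The call did not hold in every alternative. Without replicate 2 of asynchronous G1E-ER4 the difference was -10.3 points (adjusted 0.09), and with the 20000 highest peaks -8.26 points (adjusted 0.139). Without both replicate 1 libraries of G1E it was -14.0 points (exact permutation p = 0.00833, the smallest possible with fewer lists, adjusted 0.05). With stage labels exchanged only between same-numbered libraries the adjusted value was 0.0938 (exact permutation p = 0.0156, the smallest possible). In both of these last settings fewer arrangements were available. Of the 21 alternatives these 4 lost the call and 17 kept it. Among the 17, the difference was -14.0 points with the 50000 highest peaks. It was -14.2 points with the block starting 4 Mb further in and -10.3 points with the other autosomes as reference (adjusted 0.015 each). When peaks were cut to 300 bp around their summits, so that all had one width, it was -15.1 points (adjusted 0.015). With single peaks in place of merged regions it was smaller, at -10.2 points (adjusted 0.015). Where these had to share 0.5 of the shorter peak it was -10.6 points (adjusted 0.015). The higher density of peaks in the block, for which the block was chosen, moves with the result. Mitotic lists covered 9.68% of the block and 3.44% of the rest in G1E, and 26.0% and 3.34% in G1E-ER4. The part of density and covered length in the result was not tested.

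**Figure D5:**
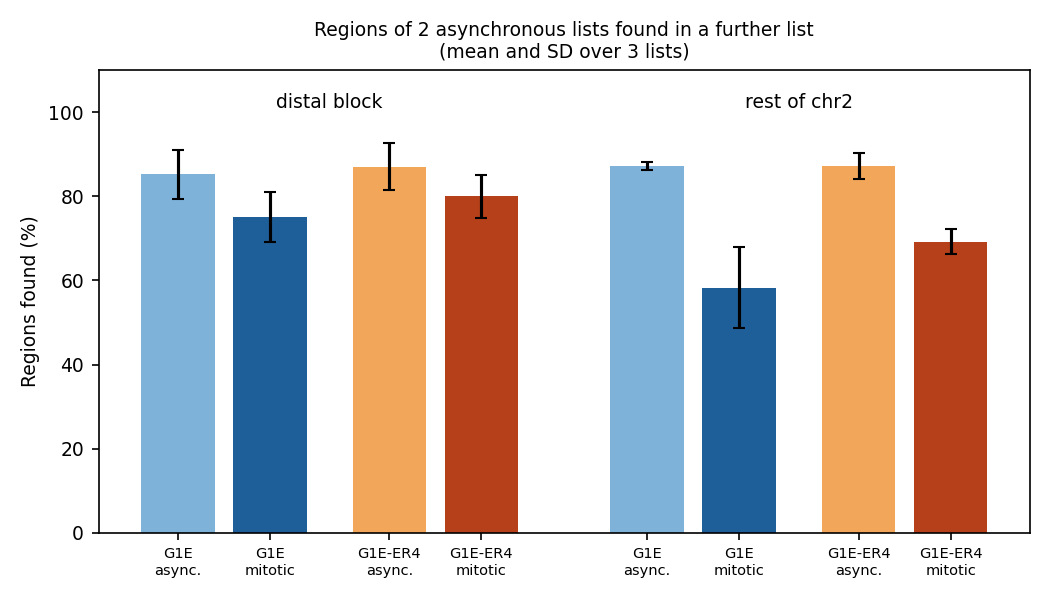
Percent of the regions of 2 asynchronous lists that are found in the left-out asynchronous list or in the mitotic lists of the same line, in the distal block (left) and on the rest of chromosome 2 (right); bars are means and error bars SD over 3 lists. Asynchronous bars are 85.3% to 87.3% in both parts, and mitotic bars are 75.1% and 80.0% in the block and 58.3% and 69.2% on the rest.

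In G1E, lists of one stage shared on average more of their length than lists of different stages, though the test over both lines was not passed after adjustment. Their Jaccard index, which is shared length over joint length, averaged 0.306 between asynchronous and 0.409 between mitotic lists in the block, and 0.199 between stages. In G1E-ER4 it was 0.547, 0.510 and 0.519, so that lists of different stages overlapped about as much as lists of one stage. The excess of same-stage pairs was 0.158 in G1E and 0.00896 in G1E-ER4, with a mean of 0.0837 (exact permutation p = 0.04, adjusted 0.0863), and the difference between the lines did not pass either (-0.150, exact permutation p = 0.07, adjusted 0.33). Between the lines the index was 0.111 for asynchronous and 0.316 for mitotic lists. The index is limited by the ratio of covered lengths, which differ more between the asynchronous lists.

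Differences of rank and width between stages did not pass the test after adjustment. The median rank number of block peaks was -1870 in mitotic minus asynchronous lists as a mean of the lines (exact permutation p = 0.19, adjusted 0.228), with a difference of 323 places in G1E and -4064 in G1E-ER4. For the excess width over the rest of the chromosome the difference was -63.9 bp (exact permutation p = 0.05, adjusted 0.0863), with -31.5 bp in G1E and -96.3 bp in G1E-ER4, where the asynchronous value includes the 366 bp of replicate 1.

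Few regions of the block belonged to 1 stage. In G1E 60 (0.984%) had a peak in all 3 asynchronous and no mitotic list, against 2.97% of all regions, and 151 (2.48%) the reverse, against 2.19%. In G1E-ER4 the counts were 102 (1.67%, against 1.89%) and 24 (0.394%, against 0.423%). As shares of all merged regions, the asynchronous class of G1E was below its background and the other 3 classes were near theirs. Only regions with a peak in all 3 lists of a stage can enter a class. These numbered 976 in the block (16%, against 20.7% of all regions) in G1E and 2573 (42.2%, against 18.7%) in G1E-ER4. Relative to them, both G1E-ER4 classes and the asynchronous class of G1E were below their background, and the mitotic class of G1E was above it. These counts depend on single libraries, and the asynchronous class of G1E-ER4 grew to 271 when asynchronous replicate 2 was left out.

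The best-ranked regions of the mitotic class of G1E were present in all G1E-ER4 lists. The region chr2:166440484-166449711 ranked 18185, 15924 and 16332 in mitotic G1E, 14594, 22661 and 15887 in asynchronous G1E-ER4, and 9843, 9117 and 8004 in mitotic G1E-ER4. The region chr2:164933000-164941943 ranked 12536 to 23406, 11982 to 17388 and 6339 to 10088 in the same groups. In both, the mitotic G1E-ER4 ranks were the best and did not overlap with those of asynchronous G1E-ER4.

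The best-ranked asynchronous regions were present in asynchronous lists of the other line. For G1E these were chr2:174169050-174170138, which ranked 8386, 21382 and 22167 in asynchronous G1E and 38616 to 49028 in asynchronous G1E-ER4, and chr2:177574888-177575306, which ranked 12240 to 23861 and 18547 to 75970. Of the mitotic G1E-ER4 lists, 1 had a peak at each of them, at ranks 96288 and 84870. For G1E-ER4 they were chr2:180526246-180526814, which ranked 14568, 22385 and 16390 in asynchronous G1E-ER4 and 21054 to 77433 in asynchronous G1E, and chr2:164241990-164243548, at 13852 to 26158 and 64949 to 98860. Neither had a peak in a mitotic list of either line.

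The mitotic class of G1E-ER4 was weak. Its best regions, chr2:163491352-163491891 and chr2:160829664-160830796, ranked 30237, 67376 and 13569 and 52549, 43311 and 20145 in the mitotic G1E-ER4 lists. They had a peak in no other library and, of the pooled lists, only in that of mitotic G1E-ER4.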

How the data were processed

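The 16 deposited files are peak lists, 1 for each of 12 libraries and 1 for each of 4 groups pooled by the authors. The submitters' processing notes name Bowtie and build mm9. The version, peak caller and depth were not given in the sources used here. Peak signal is the authors' value, with an unstated normalization, and was used in the deposited lists only within a list, for ranks and for ratios between peaks of the same list. The summit offset of each peak, another deposited column, was used only for alternatives. Block members and lists were chosen with earlier results of these data known. Peaks of the 19 autosomes and X were binned by start. Stage was tested by exact permutation over libraries, two-sided, at 0.05, with stage labels exchanged within line (20 arrangements per line, 400 in all) and Benjamini-Hochberg adjustment. Alternatives left out each library, kept the 50000 or 20000 highest peaks, moved the start by 4 Mb, used the other autosomes, 300 bp around summits, an overlap of 0.5 of the shorter peak, single peaks, bins of 1 Mb, pooled lists, running numbers and a replicate block. Running numbers, single peaks and a fit without either replicate 1 library of G1E were chosen after seeing the data. Named regions are those with the best mean rank in each class (5 for all 12 lists and for G1E-ER4 alone, 2 per stage class), and named bins the 5 highest by G1E-ER4 mean, the 5 largest and the 3 lowest differences of the lines. The calculations were tested on simulated data. Python 3.11.15, numpy 2.4.6, pandas 2.3.3, scipy 1.17.1 and matplotlib 3.10.9 were used.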

Additional observations from a re-analysis of the deposited data

How the results depend on the processing

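Of 365 alternative values, 303 were rated the same as the main value. Stage tests had to keep direction and side of the threshold. Differences between the lines had to keep direction and move by less than the SD of the main values. Counts had to stay within 1.5 times. The deficit difference ranged from -15.8 to -10.3 points with each library left out and lost its call without asynchronous G1E-ER4 replicate 2. The call was also lost with the 20000 highest peaks (-8.26). Without both replicate 1 libraries of G1E it was lost at -14.0 (exact permutation p = 0.00833, the smallest possible, adjusted 0.05). With a replicate block it was lost at -14.9 (exact permutation p = 0.0156, the smallest possible, adjusted 0.0938). In both of these last settings the observed arrangement was the most extreme, and fewer arrangements were available. Same-numbered libraries did not deviate together in every case (correlations of 0.192, -0.0712 and 0.209 in G1E and 0.0450, -0.353 and -0.0314 in G1E-ER4). Pairing by number was thus neither shown nor excluded. Replicate 1 had the widest peaks of each group, with medians of 760 and 942 bp in asynchronous and mitotic G1E and 1192 and 922 bp in asynchronous and mitotic G1E-ER4. Leaving out single libraries gave a density ratio difference of -0.0408 to 0.610, a width difference of -78.0 to -37.3 bp, an overlap excess of 0.0646 to 0.115 and a recovery deficit of 4.55 to 10.7 points. With the 50000 highest peaks the width difference was -184 bp and the deficit 12.7 points, both past the threshold, and the density difference was 0.692, not past it. With the 20000 highest the density difference was 1.65 and the rank difference 617. With 300 bp around summits the overlap excess was 0.0365. The width result was not run in that last setting, where all widths are equal.

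For the lines, G1E-ER4 minus G1E, the density ratio difference was 3.93, and 2.74 with the 20000 highest peaks, 2.73 in pooled lists and 0.820 by running numbers. The rank difference of -9131 became 927 and 2066 with the 50000 and 20000 highest peaks. The width difference of 215 bp became 344, 934 and, in pooled lists, 307 bp. The same-line excess of the Jaccard index, 0.229, became 0.0681 with 300 bp around summits.

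Bins with G1E-ER4 above G1E numbered 31 with the 20000 highest peaks and 23 of 1 Mb. For G1E, mitotic bins numbered 10 and 13 and asynchronous bins 5 and 2; for G1E-ER4, mitotic bins 78 and 1 and asynchronous bins 2 and 1. With the 50000 highest peaks mitotic G1E-ER4 bins numbered 19. Leaving out single libraries gave 20 to 46 asynchronous G1E bins, 9 to 23 mitotic and 17 to 51 asynchronous G1E-ER4 bins, 60 to 103 asynchronous and 151 to 230 mitotic G1E regions, and 102 to 271 asynchronous and 24 to 86 mitotic G1E-ER4 regions. With the 50000 highest peaks mitotic G1E regions numbered 90 and asynchronous G1E-ER4 regions 56. With 300 bp around summits G1E-ER4 regions absent from G1E numbered 92 and mitotic G1E-ER4 regions 117. Without both replicate 1 libraries of G1E, asynchronous bins numbered 54, asynchronous regions 124 and mitotic regions 256. The causes were not tested. Depth is unknown.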
